A study of Mus musculus with 24 samples.

Results

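Inguinal fat pads of 4 female and 4 male mice were compared at postnatal day 28 (p28) after standard weaning (SW), in which pups were separated from the mother at day 21. These 8 libraries are part of a series of 24, which also holds 4 animals of each sex taken at day 21 (p21) and 4 of each sex taken at p28 after delayed weaning (DW), in which the pups stayed with the mother. All animals are mice labelled only by tissue, age, sex, weaning group and animal number, and neither strain nor genotype is given in the sources used here. The sample titles of the p21 animals read p28, whereas their descriptions and the column names of the deposited values read day 21, which was followed here. For 1 p21 female the animal number in the title also differs from that in the description and column name, which was used. Each library is polyadenylated RNA from the whole subcutaneous inguinal white adipose tissue of 1 animal. The females are numbered 73, 74, 75 and 81 and the males 78, 84, 85 and 124, and values for single animals are given below in those orders. The numbers fall into a run from 73 to 80 and a run from 81 to 87, with male 124 outside both, and nothing in the labels says what a run stands for. Of the 16118 genes in the deposited table, the 15565 that do not lie on X or Y were described. X and Y genes stayed in the fit but in no count or name.

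In the mouse the inguinal pad also houses the fourth mammary gland, so that this tissue is both a fat depot and a gland. In females a rudimentary duct system is present at birth and lengthens through the pad once puberty begins, driven by ovarian estrogen and pituitary growth hormone. Its ducts have an inner luminal layer, marked by simple keratins, and an outer basal or myoepithelial layer, marked by Krt5 and Krt14. In males of many strains androgen acting on the mesenchyme destroys the connection of the bud to the skin before birth, and a small remnant may stay in the pad. Adipocytes, fibroblasts, vessels, a lymph node and nerves surround the ducts.

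Recovered reads in the listed genes numbered 113509617 to 148827611 in the SW females and 76850086 to 302145813 in the SW males, with the lowest total in male 84. That male also had the fewest detected genes (15497, against 15955 to 16066 in the other 7 SW animals). The Y genes had 0 reads in every SW female and 20776 to 68550 in every SW male, as the labels require. The pads carried adipocyte RNA in both sexes: the adipocyte marker Adiponectin (Adipoq) had values of 1236, 1466, 1312 and 1357 in the females and 1318, 1479, 1457 and 1349 in the males. A value here is the authors' normalised read number, reads divided by a factor of each library, and is not scaled to gene length.

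Of 15459 tested genes off X and Y, 521 were called higher in females (3.37%) and 23 higher in males (0.149%). Calls are those with p under 0.05 in limma after Benjamini-Hochberg adjustment, and a difference below is the female minus the male mean of log2(value + 1), with its standard error. In 526 of the 544 called genes (3.52% of those tested) the 4 females and the 4 males did not overlap, and over all tested genes this held for 7.71%. Differences on this scale understate the change of genes with low values. The RNA comes from whole pads, so more cells of a type and more RNA per cell cannot be told apart anywhere below. Of 70 genes called higher in females and named below, 64 kept their call in each of 8 fits that left out 1 SW animal.

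The promoters of 3 genes are shown as context for the ends of the comparison. Krt18 and Krt8 encode the partner keratins of simple epithelium, are neighbours on chromosome 15 and had the 2 largest differences in favour of females. Pck1 encodes phosphoenolpyruvate carboxykinase, which in adipocytes makes glycerol backbone for triglyceride, and was the gene of the adipocyte list with the largest difference in favour of males. The windows are the 250 bases before the RefSeq start of each gene (GRCm38.p6), with matches to the searched motifs in capitals.
Krt18, chr15:102027966-102028215, plus strand: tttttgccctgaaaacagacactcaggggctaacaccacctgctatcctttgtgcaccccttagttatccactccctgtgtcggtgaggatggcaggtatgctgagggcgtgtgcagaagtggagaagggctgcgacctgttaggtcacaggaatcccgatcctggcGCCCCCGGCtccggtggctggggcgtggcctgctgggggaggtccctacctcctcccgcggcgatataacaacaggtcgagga
Krt8, chr15:102004343-102004592, minus strand: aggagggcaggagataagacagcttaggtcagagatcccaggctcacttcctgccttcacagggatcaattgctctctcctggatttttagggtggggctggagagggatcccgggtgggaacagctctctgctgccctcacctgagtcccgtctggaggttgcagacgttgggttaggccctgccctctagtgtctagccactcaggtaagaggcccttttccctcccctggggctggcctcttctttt
Pck1, chr2:173152823-173153072, plus strand: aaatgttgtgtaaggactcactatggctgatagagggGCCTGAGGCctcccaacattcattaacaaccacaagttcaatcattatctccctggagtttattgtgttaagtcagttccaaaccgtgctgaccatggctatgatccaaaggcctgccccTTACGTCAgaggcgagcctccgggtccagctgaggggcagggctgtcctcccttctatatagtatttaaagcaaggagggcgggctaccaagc
On both strands 4 motifs were searched: GCCNNNGGC, a form bound by TFAP2 factors, AACCGGTT for Grainyhead-like factors, GGTCANNNTGACC for estrogen receptors, and TTACGTCA, a variant of the cyclic AMP response element. The capitals in Krt18 are GCCCCCGGC, starting 83 bases before the gene's start, and in Pck1 they are GCCTGAGGC at 213 bases and TTACGTCA at 93 bases before it. Of 32851 promoter windows of this length, 13.7% held the TFAP2 form, 0.447% the cyclic AMP variant, 0.116% the Grainyhead-like form and 0.064% the estrogen receptor form. No searched motif was found in the Krt8 window. A match is only a run of letters in these windows.

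Genes of the mammary luminal epithelium were higher in females almost without exception. Of 31 tested genes of the luminal list, 30 were called higher in females and none higher in males, and their median difference was 2.23. Over all tested genes 3.37% were called higher in females, and the median was 0.01. The list has 32 genes, of which 1 lies on X, and 9 of the 31 reached the level needed for testing in at most 1 SW male. In all 31 the 4 females and the 4 males did not overlap, against 7.71% of all tested genes. The list holds keratins, adhesion and junction proteins, epithelial transcription factors and secreted proteins. The remaining gene, Aldh1a3, a retinaldehyde dehydrogenase of luminal progenitors, had values of 27.3, 26.2, 22.5 and 33.3 in the females and 15.8, 15.9, 10.1 and 16.5 in the males and was not called (0.87 ± 0.30, adjusted p = 0.158), although it was in a fit of the 8 SW libraries alone (adjusted p = 0.0119).

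**Figure D1:**
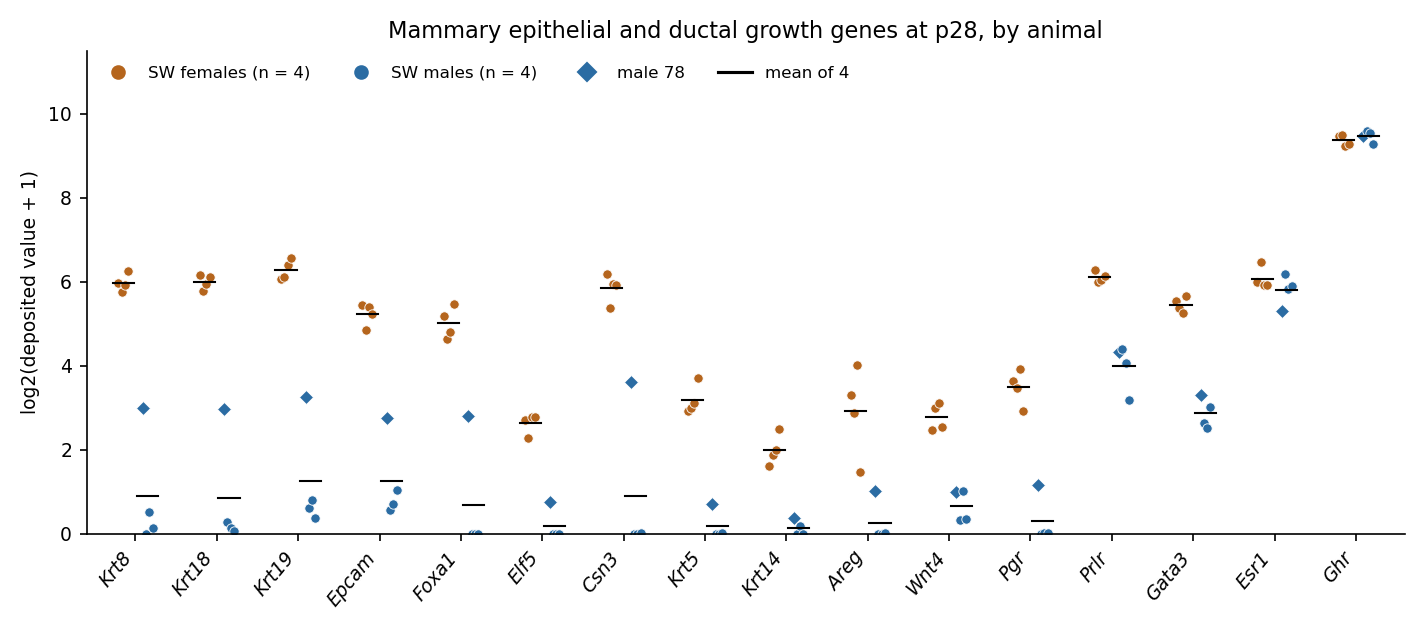
Log2(deposited value + 1) of 16 mammary epithelial and ductal growth genes in each of the 4 SW females (brown) and 4 SW males (blue), with male 78 as a diamond and a black line at each group's mean. For Krt8, Krt18, Krt19 and Csn3 the females lie above 5, male 78 between 2.9 and 3.7 and the other males under 1, while Esr1 and Ghr overlap between the sexes.

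Among the keratins, Krt18 had values of 71, 54.2, 60.9 and 68 in the females and 6.87, 0.224, 0.0966 and 0.0476 in the males. The difference was 5.14 ± 0.55 (adjusted p = 6.52e-07), the largest of all tested genes. Its partner Krt8 had 61.5, 52.7, 59.3 and 74.9 in the females and 6.94, 0, 0.426 and 0.0951 in the males (5.06 ± 0.58, adjusted p = 1.79e-06). Females were close to each other in both genes, and among the males number 78 stood well above the other 3. Krt19, a further simple keratin, was laid out the same way, with 65.7, 68.1, 84 and 93.4 against 8.56, 0.532, 0.737 and 0.301 (5.02 ± 0.52, adjusted p = 4.39e-07). Krt7 ran from 15 to 22 in females and from 0.21 to 1.85 in males.

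Adhesion and junction genes followed. Epcam, an epithelial adhesion molecule, had values of 43, 28, 41.3 and 36.9 in the females and 5.72, 0.49, 0.63 and 1.06 in the males (3.97 ± 0.41, adjusted p = 3.76e-07). Cdh1, which encodes E-cadherin, had 41.6, 32.4, 35.9 and 43 against 7.05, 0.882, 1.41 and 1.5 (3.66 ± 0.39, adjusted p = 6.87e-07). For both genes each male carried reads, and the lowest female was at least 4 times the highest male. The tight junction claudins Cldn3, Cldn4 and Cldn7 differed by 2.05, 2.95 and 1.64. Dsp, which encodes the desmosome protein desmoplakin, differed by 3.84 ± 0.63, with 12.5 to 20.4 in females and at most 1.29 in males.

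Transcription factors of luminal cells were among the called genes. Foxa1, a pioneer factor of hormone-sensing luminal cells, had values of 35.2, 23.9, 26.7 and 43.6 in the females, 5.96 in male 78 and 0 reads in the other 3 males, which allows values of up to 0.042, 0.0107 and 0.0238 in males 84, 85 and 124. Elf5, the factor of the alveolar lineage, had 5.51, 3.88, 5.91 and 5.87 in the females and 0.688, 0, 0.00716 and 0 in the males (2.45 ± 0.22, adjusted p = 5.01e-08). In both genes the 4 females lay above all males, and male 78 lay nearest to them. The other epithelial factors Elf3, Ehf, Grhl2 and Tfap2c differed by 2.58, 2.12, 2.23 and 1.92. Tfap2b, a factor of the AP-2 family outside the lists, differed by 4.28 ± 0.42, with 28.7, 20.7, 23.7 and 40.1 in the females and 2.43, 0.14, 0.0286 and 0.127 in the males. Ehf stood apart from these in that its males carried 2.45 to 4.03, with male 78 inside the range of the others. Smaller differences were found for Trps1 (0.94 ± 0.16), a GATA-type repressor, for Cd24a (1.12 ± 0.16), a surface marker used to sort mammary epithelium, and for Kit (0.59 ± 0.15, adjusted p = 0.0277), a receptor of luminal progenitors. Kit is also carried by mast cells, and its call was lost without female 73, 75 or 81 or male 85 or 124 (adjusted p up to 0.12) and with the run of animal numbers in the fit (adjusted p = 0.177).

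Secreted luminal proteins gave the next group. Ltf, the iron-binding milk protein lactoferrin, had values of 18.1, 19.9, 14.6 and 27.9 in the females and 2.07, 0.056, 0.304 and 0.444 in the males (3.71 ± 0.39, adjusted p = 4.40e-07). Lcn2, the siderophore-binding protein lipocalin 2, differed by 2.72 ± 0.26, and Wfdc18, a whey acidic protein domain gene, by 2.77 ± 0.30. Tmprss2, a membrane serine protease, differed by 4.00 ± 0.44 with 0 reads in males 84, 85 and 124. Genes outside the lists with differences of this size were Dmbt1 (3.78 ± 0.38), a mucosal scavenger receptor protein, Fgg (3.87 ± 0.40), the fibrinogen gamma chain, which neither edgeR (adjusted p = 0.0686) nor DESeq2 (adjusted p = 0.42) called, and Atp6v1b1 (3.62 ± 0.39), a subunit of the vacuolar proton pump.

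Male 78 was set apart from the other males by the luminal genes. Its luminal score, the mean log2(value + 1) over the list, was 2.01, against at most 1.09 in the other 3 males and 3.62 to 4.00 in the females. It was the highest male in 25 of the 30 called luminal genes and in 288 of all 521 genes called higher in females (55.3%), against 24.9% of all tested genes. Over the 30 called luminal genes its value was a median of 15.3% of the female mean, and the mean of the other 3 males a median of 1.85%. Without this animal, the male nearest to the females, 30 luminal genes were called and the median difference was 2.38. What set male 78 apart was not tested. With the luminal score as a covariate in the fit, 2 genes were called between the sexes, both higher in females, but the score itself did not overlap between SW females and males, so sex and score are hard to separate in these animals.

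Some of the luminal calls were lost in count models. On the recovered reads, edgeR with TMM scaling gave luminal differences of the same direction, but Krt8 (5.03, adjusted p = 0.0548), Foxa1 (4.42, adjusted p = 0.22), Tmprss2 (4.70, adjusted p = 0.115), Elf5 (4.93, adjusted p = 0.0545), Tfap2c (4.56, adjusted p = 0.0727) and Kit (0.56, adjusted p = 0.0598) were not called. DESeq2 called Krt8 and Kit, and did not call Foxa1 (adjusted p = 0.6), Tmprss2 (adjusted p = 0.362), Elf5 (adjusted p = 0.0996) or Tfap2c (adjusted p = 0.162). In these genes other than Kit, male 78 lay above the other males. The same layout in Krt18 came with a call by both count models.

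The milk genes did not move as a block. Of 9 tested genes of the milk protein and secretory list, 3 were called higher in females (33.3%, against 3.37% of all tested genes). The median difference was 0.36 (0.202 without male 124). Csn3, which encodes kappa-casein, had values of 71.6, 40.7, 61.2 and 60.1 in the females and 11.3, 0, 0.00716 and 0.0159 in the males (4.95 ± 0.72, adjusted p = 4.48e-05). Male 78 carried 19.4% of the female mean and the other 3 males almost none. The call for Csn3 was lost with edgeR (4.34, adjusted p = 0.32) and with DESeq2 (4.36, adjusted p = 0.508). Muc15, a membrane mucin, differed by 3.10 ± 0.33, and Btn1a1, the butyrophilin of milk fat globules, by 1.41 ± 0.21 (DESeq2 adjusted p = 0.0993). Csn2, which encodes beta-casein, was near 0 in all 8 animals, from 0.056 to 0.222, and was not called. Lalba, the alpha-lactalbumin of lactose synthesis, had values of 1.6, 1.35, 1.19 and 1.07 in the females and 0.822, 1.39, 0.83 and 0.277 in the males and was not called (0.36 ± 0.18, adjusted p = 0.579). Csn1s1, Csn1s2a, Csn1s2b, Olah and Wap were not analysed here. Glycam1, which is shared with the high endothelial venules of lymph nodes, overlapped between the sexes, as did Mfge8 and Xdh.

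Genes of the basal epithelium were also higher in females, but fewer of them were called. Of 22 genes of the basal list, 11 were called higher in females (50%, against 3.37% of all tested genes) and none higher in males. The median difference was 0.83, and 13 of the 22 did not overlap between the sexes, against 7.71% of all tested genes. Krt5 had values of 6.6, 6.99, 7.65 and 12.1 in the females and 0.631, 0, 0 and 0.0159 in the males (3.01 ± 0.42, adjusted p = 2.43e-05), and Krt14 had 2.09, 2.68, 2.97 and 4.63 against 0.296, 0, 0.143 and 0 (1.86 ± 0.28, adjusted p = 6.54e-05). The females were above every male for both keratins, and only male 78 carried more than 0.2 of either. Both calls were lost with edgeR (adjusted p = 0.0956 for Krt5 and 0.0705 for Krt14) and with DESeq2 (0.0951 and 0.0936). Krt17, Krt15 and Krt6a, further keratins of stratified or basal epithelium, differed by 1.48, 1.42 and 0.61, and 2 genes of the list reached the level required for testing in no SW male.

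Attachment genes of the basal layer were also called. Col17a1, the hemidesmosomal collagen, differed by 1.40 ± 0.21, Perp, a desmosome protein, by 2.19 ± 0.36 and Cdh3, P-cadherin, by 1.22 ± 0.23. Tspan8, a tetraspanin, differed by 1.36 ± 0.29 and lost its call with edgeR (adjusted p = 0.173), with DESeq2 (adjusted p = 0.108) and with a pseudocount of 0.1 (adjusted p = 0.0554). Sox10, which marks both basal mammary progenitors and Schwann cells, had values of 6.72, 6.43, 8.1 and 11.8 in the females and 3.04, 2.79, 2.54 and 2.65 in the males (1.27 ± 0.30). Its call was lost without female 81, the highest animal (adjusted p = 0.0631), and with the run of animal numbers in the fit (adjusted p = 0.0742). The other 8 tested Schwann cell genes were not called.

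Several other basal markers overlapped between the sexes. Trp63, the master factor of stratified and basal epithelium, had 8.72, 7.53, 8.27 and 7.05 in the females and 13.1, 18.2, 8.48 and 2.54 in the males (-0.14 ± 0.38, adjusted p = 1). Its males ranged more widely than its females. Itga6, the alpha 6 integrin, had 103 to 150.4 over the 8 animals and is also an endothelial gene. Among contractile genes shared by myoepithelium and vessel walls, 1 of 8 was called higher in females (12.5%, against 3.37% of all tested genes). It was Cnn1, calponin, at 1.12 ± 0.28 (adjusted p = 0.0227), a call lost without female 73, 74 or 81 or male 84 or 85 (adjusted p up to 0.118) and with the run of animal numbers in the fit (adjusted p = 0.0887). Acta2 (0.46 ± 0.17) and Myh11 (0.22 ± 0.22) were not called, although Acta2 was in a fit of the 8 SW libraries alone (adjusted p = 0.0332). Oxtr, the oxytocin receptor of myoepithelium, did not overlap between the sexes, with 90.04, 71.5, 55.7 and 76.2 in the females and 42.2, 37.4, 40.8 and 24.1 in the males, and was not called in the fit of all 24 libraries (1.01 ± 0.37, adjusted p = 0.201) but was in the fit of the 8 (adjusted p = 0.00962).

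Duct growth is steered by ligands from the epithelium and from the stroma. Of 38 tested ligands and modulators, 7 were called higher in females (18.4%, against 3.37% of all tested genes) and none higher in males. Their median difference was 0.15 (0.096 without female 73). Areg, the amphiregulin that carries the estrogen signal to the epidermal growth factor receptor during ductal growth, had values of 8.89, 6.31, 15.4 and 1.79 in the females and 1.04, 0, 0 and 0.0238 in the males (2.66 ± 0.36, adjusted p = 1.66e-05). Female 81 was the lowest of the females, at 1.79, and still lay above male 78. DESeq2 did not call it (adjusted p = 0.0811). Wnt4, which acts downstream of progesterone, had 4.53, 6.94, 7.66 and 4.85 against 1.004, 0.252, 1.02 and 0.277 (2.11 ± 0.27, adjusted p = 8.60e-06). Its lowest female was above 4 and its highest male, number 85, near 1.

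Wnt7b, made by luminal ducts, differed by 1.64 ± 0.12, with at most 0.191 in the males. Adamts18, an extracellular protease of the mammary stem cell niche, had 4.72, 2.87, 2.9 and 3.59 in the females and 0.717, 0.35, 0.744 and 1.08 in the males (1.39 ± 0.15). Inhbb, the activin B subunit, which adipocytes also make, had 32.1, 35.1, 34.7 and 40.5 against 14.3, 11.6, 12.9 and 28.8 (1.12 ± 0.25), with male 124 close to the lowest female. Wnt5b (0.83 ± 0.16) and Wnt5a (0.63 ± 0.16, adjusted p = 0.027), ligands of non-canonical Wnt signalling, completed the called genes. The Wnt5a call was lost in 6 of 8 fits that left out 1 animal each, all but those without female 75 or male 124 (adjusted p up to 0.145).

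Igf1, Fgf10, Fgf7 and Tnfsf11 of the same list were not called. Igf1, the local mediator of growth hormone, had 408, 466, 289 and 275 in the females and 391, 428, 319 and 310.4 in the males (-0.03 ± 0.21, adjusted p = 1), a range shared by both sexes. Fgf10, a mesenchymal growth factor, differed by 0.29 ± 0.15 and Fgf7 by 0.03 ± 0.23. Tnfsf11, which encodes the progesterone-induced cytokine RANKL, was low in all 8 animals (0.966 to 2.38).

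Among receptors and regulators, 6 of 31 tested genes were called higher in females (19.4%, against 3.37% of all tested genes) and none higher in males. Their median difference was 0.18. That median was 0.104 without male 78, 0.114 without male 85 and 0.08 once genes reaching a value of 1 in fewer than 4 libraries were dropped. The estrogen receptor gene Esr1 had 62.8, 87.3, 59.4 and 60.2 in the females and 38.7, 71.9, 56.3 and 58.4 in the males and was not called (0.27 ± 0.23, adjusted p = 0.918). Esr1 is also expressed by adipose stroma. Pgr, the progesterone receptor and a classic estrogen target, had 11.6, 10.1, 14.1 and 6.64 against 1.23, 0, 0.0215 and 0.0159 (3.19 ± 0.28, adjusted p = 3.34e-08). The females were at least 5 times the highest male, which was male 78.

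Prlr, the prolactin receptor, had values of 76.6, 62.8, 65 and 69.5 in the females and 19.1, 20.2, 15.7 and 8.12 in the males (2.12 ± 0.27, adjusted p = 5.78e-06). Gata3, the factor that maintains luminal fate, had 45.4, 40.3, 37.1 and 49.3 against 8.97, 5.26, 4.77 and 7.05 (2.58 ± 0.25, adjusted p = 1.83e-07). In both genes every male carried a value above 4, and for Prlr male 78 was not the highest male. Erbb3, a neuregulin receptor, differed by 1.98 ± 0.21, Fgfr2, the epithelial receptor of Fgf7 and Fgf10, by 1.24 ± 0.14 and Msx2, a homeobox factor of the mammary bud, by 1.81 ± 0.17. The growth hormone receptor Ghr (-0.10 ± 0.17), the epidermal growth factor receptor Egfr (-0.01 ± 0.27) and Igf1r (0.06 ± 0.12) were not called.

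**Figure D2:**
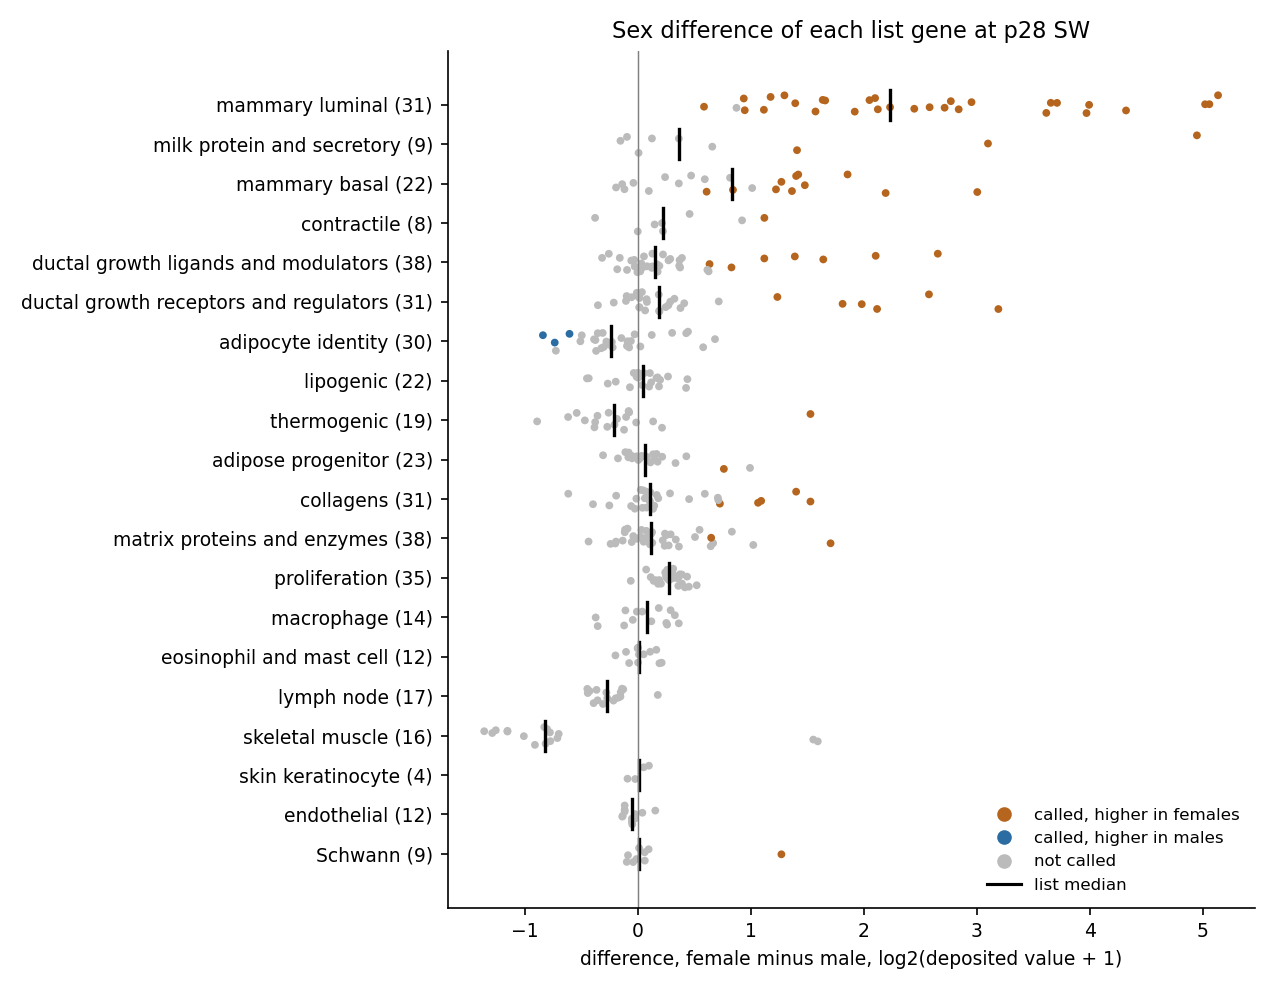
Difference between the sexes at p28 SW, female minus male on the log2(deposited value + 1) scale, for each tested gene of 20 lists (number of genes in brackets), with genes called higher in females in brown, called higher in males in blue, not called in grey and list medians as black lines. The luminal list lies furthest to the right with a median of 2.23, and the 3 blue genes are Pck1, Plin4 and Aqp7 of the adipocyte list.

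Adipocyte genes differed in the other direction, by less and in fewer genes. Of 30 genes of the adipocyte identity list, none was called higher in females and 3 were called higher in males, Pck1, Plin4 and Aqp7, and 23 of the 30 had a negative difference, with a median of -0.24. Over all tested genes the median was 0.01, and 0.149% were called higher in males, against 10% of this list. A positive difference was found in 8063 of 15459 tested genes and in 7 of the 30. Pck1 had values of 734, 1167, 964 and 1312 in the females and 1538, 1861, 2036 and 1918 in the males (-0.84 ± 0.22, adjusted p = 0.0299), and no female reached the lowest male. Plin4, which encodes a lipid droplet coat protein, had 956, 865, 985 and 1446 against 1594, 1751, 1654 and 1970.0 (-0.74 ± 0.21, adjusted p = 0.0496). Its highest female, number 81, came near to the lowest male. Aqp7, the glycerol channel of adipocytes, had 196, 355, 208 and 291 against 361, 468, 409 and 328 (-0.61 ± 0.16, adjusted p = 0.0295) and overlapped, as female 74 lay above male 124.

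These calls lay near the threshold. Leaving out 1 of the 8 animals at a time ended the call for Pck1 in 5 fits (without female 73 or 75 or male 84, 85 or 124), for Aqp7 in 4 (without female 73 or 75 or male 84 or 85) and for Plin4 in 7 (all but the one without female 81). No gene of the list was called without female 73 or 75 or male 84 or 85. The largest adjusted p-values in the fits without 1 animal were 0.169, 0.17 and 0.184, and the differences stayed negative, from -0.96 to -0.68 for Pck1, -0.89 to -0.65 for Plin4 and -0.76 to -0.48 for Aqp7. Plin4 was also lost with the muscle score in the fit (adjusted p = 0.0553) and Aqp7 in the fit of the 8 SW libraries alone (adjusted p = 0.155). With the run of animal numbers in the fit none of the 3 was called (adjusted p = 0.211, 0.119 and 0.0514 for Pck1, Plin4 and Aqp7).

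Other genes called higher in males were Ffar2, Hcar2 and Nrg4. Ffar2, a short-chain fatty acid receptor, had 31.1, 43.6, 29.9 and 43.3 in the females and 59.99, 78.1, 69.8 and 58.4 in the males (-0.84 ± 0.16, adjusted p = 0.00147). Hcar2, the nicotinic acid and hydroxybutyrate receptor that restrains lipolysis, had 17.6, 22.8, 13.2 and 30.2 against 35.7, 50.2, 40.7 and 30.7 (-0.92 ± 0.21, adjusted p = 0.00807). In both genes every male lay above every female, but for Hcar2 male 124 exceeded female 81 by little, and its call was lost without female 75 or male 84 (adjusted p up to 0.0516). Nrg4, a neuregulin secreted by adipocytes, had 36.1, 39.4, 34.9 and 44.5 against 70.7, 74.5, 57.9 and 45.7 (-0.65 ± 0.13, adjusted p = 0.00324).

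Net1, a guanine nucleotide exchange factor, had the largest called difference in favour of males, with 111, 124, 107 and 146 in the females and 335, 423, 319.8 and 178 in the males (-1.30 ± 0.32, adjusted p = 0.0164). Ehhadh, a peroxisomal enzyme of fatty acid oxidation, differed by -0.98 ± 0.25 and Slc5a6, a vitamin transporter, by -0.60 ± 0.17. Serpina3k, a serine protease inhibitor of a family of close copies whose reads may be shared, differed by -1.02 ± 0.20, and Chrna2, a nicotinic acetylcholine receptor subunit known from beige adipocytes, by -0.83 ± 0.13. The remaining genes of the naming rule were Zyg11a (-1.21), Fam107a (-1.05), Katnal2 (-0.91), Ankef1 (-0.70) and Syne3 (-0.67). With the run of animal numbers in the fit, Slc5a6 (adjusted p = 0.156) and Syne3 (adjusted p = 0.212) lost their calls, as they did with the muscle score (adjusted p = 0.0511 and 0.0609), and edgeR did not call Syne3 (adjusted p = 0.065). Of the 16 named genes called higher in males, 11 lost the call when 1 animal or another was left out. The 5 that kept it in all 8 such fits were Serpina3k, Ffar2, Chrna2, Ankef1 and Nrg4, of which Serpina3k was lost with edgeR (adjusted p = 0.0501).

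**Figure D3:**
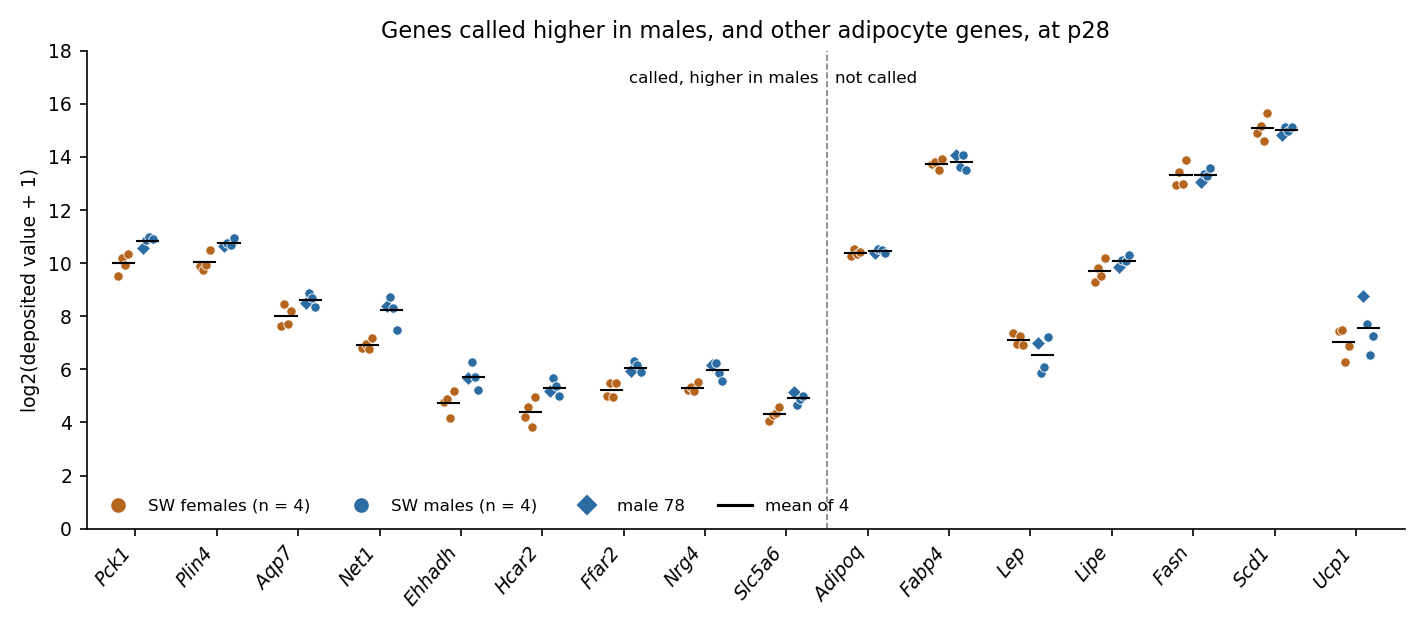
Log2(deposited value + 1) in each SW female (brown) and SW male (blue; male 78 as a diamond) for 9 genes called higher in males, left of the dashed line, and 7 further adipocyte genes that were not called, right of it; black lines are group means. Pck1, Plin4 and Aqp7 sit lower in females by 0.84, 0.74 and 0.61, while Adipoq, Fabp4, Fasn and Scd1 overlap between the sexes.

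Most single genes of the adipocyte list were not called, although its score lay lower in every female than in any male. Fabp4, the fatty acid carrier of adipocytes, had 13502, 14291, 11616 and 15721 in the females and 17109.5, 12692, 17456 and 11521 in the males (-0.08 ± 0.28), and Adipoq differed by -0.06 ± 0.14. Lep, the leptin gene, had 162, 124, 151 and 120.4 against 127, 57, 67.3 and 149 (0.58 ± 0.34, adjusted p = 0.723), with males 84 and 85 below the rest. The lipases Lipe (-0.39 ± 0.23) and Pnpla2 (-0.28 ± 0.32) and the imprinted gene Nnat (-0.73 ± 0.32) were not called. The adipocyte score, the mean log2(value + 1) of the list, was 8.399 to 8.744 in the females and 8.75 to 8.80 in the males, so the sexes did not overlap but lay close together.

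None of 22 lipogenic genes was called by limma, edgeR or DESeq2 (2 had an unadjusted limma p-value under 0.05, 1 in each direction), and their median difference was 0.05, with -0.008 without female 81 and 0.08 to 0.116 without female 73 or 75 or male 84 or 85. Fasn, fatty acid synthase, ran from 7790.1 to 15145 in the females and from 8450.1 to 12122 in the males (0.00 ± 0.31), and Scd1, the stearoyl-CoA desaturase, differed by 0.05 ± 0.41. The females enclosed the males in both genes. Among 19 thermogenic genes the median was -0.21 (-0.131 without female 75) and 1 was called higher in females (5.26%, against 3.37% of all tested genes). This was Ckmt1, a mitochondrial creatine kinase also found in epithelia (1.53 ± 0.13). Ucp1, the uncoupling protein, had 175, 179, 76.3 and 116 in the females and 438, 206, 91.4 and 153 in the males, with male 78 highest, and was not called (-0.54 ± 0.57, adjusted p = 0.959).

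For the stromal lists the shares of called genes are given beside that of all tested genes, and the lists were not tested against each other. Of 23 adipose progenitor genes 1, Cd9, was called higher in females (4.35%, against 3.37% of all tested genes). Cd9, a tetraspanin that luminal cells carry as well, had 79.8, 58.5, 78.8 and 71 in the females and 53.2, 37.8, 41.8 and 36.2 in the males (0.76 ± 0.12, adjusted p = 1.79e-04). The progenitor markers Pdgfra (0.13 ± 0.26) and Dpp4 (-0.18 ± 0.17) were not called. The list's median was 0.06 and took either sign when 1 animal was left out, from -0.034 without male 85 and -0.029 without female 81 to 0.114 without male 124, 0.12 without female 75 and 0.14 without male 78, where 2 of its genes were called. The abundant interstitial collagen genes Col1a1 (-0.06 ± 0.37) and Col3a1 (0.07 ± 0.28) overlapped between the sexes.

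Of 31 tested collagen genes 5 were called, all higher in females: Col17a1, also on the basal list, Col9a2 (1.53 ± 0.17), Col7a1 (1.09 ± 0.30), Col9a1 (1.06 ± 0.07) and Col8a1 (0.73 ± 0.17). Col9a1 and Col9a2 encode chains of a fibril-associated collagen, Col7a1 the anchoring fibril of epithelial basement membrane and Col8a1 a short-chain collagen. For Col8a1 the values were 14.5, 14.4, 12.4 and 15.8 in the females and 7.2, 7.5, 10.2 and 8.19 in the males. The Col7a1 call was lost without female 73, 75 or 81 or male 84 or 124 (adjusted p up to 0.223), with the run of animal numbers in the fit (adjusted p = 0.19) and with edgeR (adjusted p = 0.0738). The median of the collagen list was 0.11, and its share of genes called higher in females was 16.1%, against 3.37% of all tested genes.

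Of 38 matrix proteins and enzymes 2 were called higher in females (5.26%, against 3.37% of all tested genes). Kera, the small proteoglycan keratocan, had 4.29, 2.28, 1.98 and 2.01 in the females and 0.182, 0, 0.093 and 0.0634 in the males (1.71 ± 0.14, adjusted p = 1.22e-08), with female 73 highest. Mmp14, a membrane metalloprotease of branching ducts, had 178, 156, 123 and 128 against 102, 102, 74.8 and 91 (0.65 ± 0.18, adjusted p = 0.0403). Its call was lost without female 73 or 74 or male 84, 85 or 124 (adjusted p up to 0.193), with edgeR (adjusted p = 0.0596) and with the run of animal numbers (adjusted p = 0.121). Lum, the proteoglycan lumican, did not overlap between the sexes and was not called (0.83 ± 0.24, adjusted p = 0.063), although DESeq2 called it (0.83, adjusted p = 0.0275). Postn, periostin, was not called (0.64 ± 0.23).

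None of 35 cell division genes was called by limma or edgeR and 1 by DESeq2. Of the 35, 7 were higher in females at an unadjusted limma p-value under 0.05, 34 had a positive difference, and the median was 0.28. By comparison, 8063 of 15459 tested genes had a positive difference and 1068 were higher in females at that unadjusted level. Mki67 had 71, 57.7, 57.5 and 50.7 in the females and 57.8, 44.6, 46.5 and 41.2 in the males (0.31 ± 0.14, adjusted p = 0.425), and the male that overlapped the females was male 78. The gene called by DESeq2 was Ube2c, a mitotic ubiquitin-conjugating enzyme (limma 0.42 ± 0.13, adjusted p = 0.114; DESeq2 0.47, adjusted p = 0.0465). Male 78 was the highest male in 26 of the 35 (74.3%, against 24.9% of all tested genes). Without it 2 of the 35 genes were called higher in females, and the median was 0.34.

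Markers of other tissues in the pad were checked in the same animals. None of the tested genes of the macrophage (14), eosinophil and mast cell (12), lymph node (17), skeletal muscle (16), endothelial (12) or skin keratinocyte (4) lists was called by limma, edgeR or DESeq2, and 1 lymph node gene had an unadjusted limma p-value under 0.05. The other 12 keratinocyte genes of the list were not analysed here. The muscle score ran from 4.64 to 7.58 in the females and from 4.51 to 8.70 in the males, and with that score in the fit 511 genes were higher in females and 22 higher in males. The lymph node score was 5.38 to 6.20 in the females and 5.74 to 6.33 in the males. Endothelial scores were 6.15 to 6.41 and 6.03 to 6.52. Each of these ranges overlapped between the sexes. A positive difference was found in 1 of 17 lymph node, 2 of 16 muscle and 2 of 12 endothelial genes. It was found in 8 of 14 macrophage, 8 of 12 eosinophil and mast cell and 2 of 4 keratinocyte genes, and in 8063 of 15459 tested genes. These counts were not tested.

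A last group of genes was picked after their values were seen, as they fall outside the naming rule. Ptn, the growth factor pleiotrophin, had 128, 84.4, 112 and 129 in the females and 17.9, 6.92, 7.02 and 7.01 in the males (3.51 ± 0.30, adjusted p = 3.30e-08). Slc12a2, the sodium-potassium-chloride cotransporter of duct epithelium, had 135, 116, 110.2 and 111 against 47.4, 29.6, 27.8 and 25.6 (1.86 ± 0.16). Agps, an enzyme of ether lipid synthesis, had 116, 103, 92.4 and 99.8 against 39.3, 48.6, 36.6 and 37 (1.33 ± 0.16). For these 3 genes every male carried a value above 6, and the females and the males did not overlap. Among the 521 called higher in females, 357 had a mean under 1 in males 84, 85 and 124, and 38 had a mean of 10 or more there, with median differences of 0.99 and 0.73. Ptn lies between these levels. Capn8, a calpain protease (2.43 ± 0.12, adjusted p = 3.62e-12), and Pak6, a serine-threonine kinase (1.31 ± 0.07, adjusted p = 1.60e-11), were called under every alternative tried, including the luminal score as a covariate (largest adjusted p-values 0.0124 and 0.00952). They are the 2 genes still called with that score. The score did not overlap between SW females and males, so that fit is no test of single genes. Capn8 had 0 reads in 3 of the SW males. Ido1, the tryptophan-degrading dioxygenase, differed by 1.95 ± 0.14.

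The same contrast was taken in the animals of the other ages and weaning groups, which are different mice. At p21, 51 genes were called higher in females (0.33%) and none higher in males by limma, where 406 were higher in males at an unadjusted p-value under 0.05. At p28 DW, 292 genes were called higher in females (1.89%) and 87 higher in males (0.563%). Of the 521 genes called higher in SW females, 471 had a positive difference at p21 and 508 at DW, against 56.6% and 48.1% of all tested genes, and 50 and 248 were called there. The p21 male numbered 53 had the lowest read total of the series (57600711) and 14054 detected genes. The muscle list, with no called gene in any of these comparisons, had median differences of 1.13 at p21, -0.82 at SW and -3.34 at DW. The SW median ran from -1.617 without male 84 to -0.322 without female 75. With the muscle score in the fit, 508 of the 521 and 18 of the 23 genes kept their call at SW, and its part at p21 and DW was not tested.

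Among luminal genes the median difference was 0.95 at p21, 2.23 at SW and 1.53 at DW, with 14, 30 and 26 of 31 called. Over all tested genes 0.33%, 3.37% and 1.89% were called higher in females. Krt18 had mean values of 10.7 ± 5.36 (SD, n = 4) in p21 females and 0.757 ± 1.384 in p21 males, 63.5 ± 7.51 and 1.81 ± 3.38 at SW, and 26.6 ± 12.5 and 0.471 ± 0.753 at DW. The SD among males exceeded their mean at p21, SW and DW alike, and at SW this came from 1 high animal, male 78. Male SDs also exceeded the means for Foxa1 (0.401 ± 0.801 at p21 and 0.277 ± 0.545 at DW) and Csn3 (1.66 ± 3.33 and 0.748 ± 1.46). Values of single p21 and DW males are not given here. The difference at SW exceeded that at p21 in 13 luminal genes by the interaction test, and over all tested genes in 149 (0.964%), while 11 were below it (0.0712%). This test shares the SW animals with the comparison that named these genes. Among the 13 are Krt7 (larger by 2.04), Elf3 (1.62), Cldn4 (2.01) and Grhl2 (1.32). Krt18 is not among them (larger by 2.29, interaction test adjusted p = 0.255). Nor are Krt8, Krt19, Epcam and Foxa1 (adjusted p = 0.313, 0.172, 0.201 and 0.599). Csn3 differed by 4.44 at p21 already and by 4.95 at SW, with 42.7 ± 33.2 in p21 females.

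Regulators and a stromal gene had the same layout, under the same limit on the interaction test. Gata3 differed by 0.53 at p21 (adjusted p = 0.575) and by 2.58 at SW, a change of 2.05 (adjusted p = 0.00297), with mean values of 12.1 ± 2.17 in p21 females and 43 ± 5.39 in SW females. Pgr differed by 1.33 at p21 and by 3.19 at SW, a change of 1.86 (adjusted p = 0.0156). Kera differed by 0.04 at p21 and by 1.71 at SW, a change of 1.66 (adjusted p = 6.47e-05). None of the 22 basal genes was called at p21, and 4 were called higher in females at DW, against 1.89% of all tested genes. The medians of the basal list were 0.27 at p21, 0.83 at SW and 0.35 at DW.

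**Figure D4:**
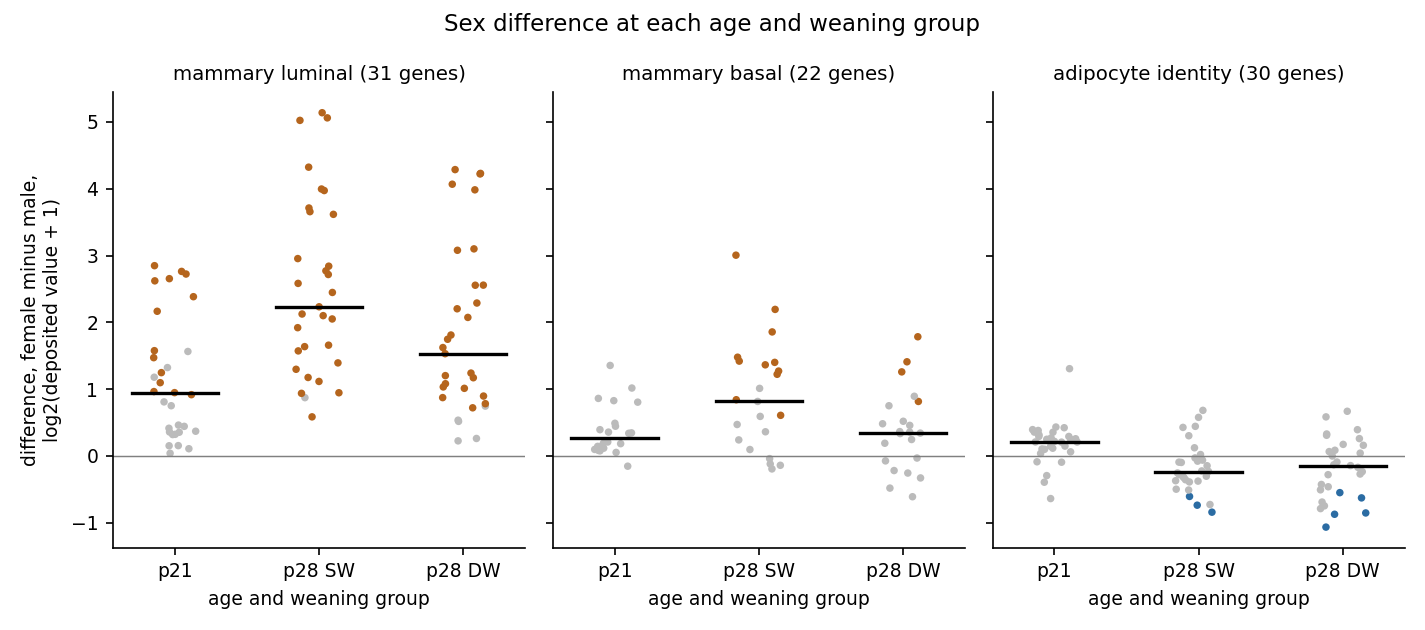
Difference between the sexes, female minus male on the log2(deposited value + 1) scale, at p21, p28 SW and p28 DW (4 females and 4 males each) for the tested genes of the luminal, basal and adipocyte lists; brown points were called higher in females, blue points higher in males, grey points were not called, and black lines are list medians. The luminal median goes from 0.95 at p21 to 2.23 at SW and 1.53 at DW, and the adipocyte median is 0.21, -0.24 and -0.16.

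The difference at SW was set against that at DW in the same fit. Over all tested genes 3 differed (0.0194%), Hc, the complement component C5 (larger at SW by 1.21, adjusted p = 0.041), Pak6 (0.67, adjusted p = 0.015) and Proc, the anticoagulant protein C (0.63, adjusted p = 0.0237). Hc had mean values of 5.13 ± 1.18 and 0.571 ± 0.1997 in SW females and males and 1.7 ± 0.435 and 0.6002 ± 0.166 at DW. No luminal, basal or adipocyte list gene was among the 3, so that the lower luminal median at DW was not shown to differ from that at SW gene by gene.

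None of the genes called higher in SW males was called at p21. Of the 23, 7 had a negative difference at p21 against 43.4% of all tested genes, and all 23 had one at DW against 51.9%, where 7 were called. Pck1 had mean values of 724 ± 187 and 701 ± 174 (SD, n = 4) in p21 females and males, 1044 ± 251.3 and 1838 ± 213 at SW and 1035 ± 148 and 1888 ± 374 at DW. At DW it differed by -0.85 (adjusted p = 0.0386), and Plin4 by -1.06 (adjusted p = 0.00346). The change from p21 to SW was called for 6 of the 23, among them Nrg4 (-0.87, adjusted p = 0.0196) and Chrna2 (-0.96, adjusted p = 0.00965). Over all tested genes the difference at SW lay below that at p21 in 11 (0.0712%). This test shares the SW animals with the calls that chose the 23 genes, which favours such a change. Of the 30 genes of the adipocyte list none was called at p21, and 5 were called higher in males at DW, against 0.563% of all tested genes.

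Differences were also taken within the runs of animal numbers. In the run from 73 to 80 (3 females and male 78) the luminal median was 1.79, and in the run from 81 to 87 (female 81 and males 84 and 85) it was 2.69. The basal medians were 0.74 and 0.98, and those of the adipocyte list were -0.28 and -0.09. All 521 genes called higher in females and all 23 called higher in males kept their direction within both runs. These animals had also entered the calls. In 526 of the 544 called genes the sexes did not overlap, which fixes the direction within any run. The kept direction is therefore no check on the runs.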

How the data were processed

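The deposited signal is, per gene and library, a read number over a factor of that library. The submitters' processing notes name fastp, HISAT2, featureCounts, DESeq2 1.38.3 and mm10, without roles or settings. All values of a library (100%, within 0.01) equalled whole multiples of the smallest one, from which reads were recovered. They give depth over listed protein-coding genes, not molecules, and limits for 0 reads (3 reads) cover counting error only. Of 16208 rows, 90 repeats were dropped. Only 2.23% of gene starts equalled GENCODE M21 (GRCm38), so gene coordinates are not printed.

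Genes passing edgeR's filterByExpr (minimum count 10; 16005 genes) entered 1 limma fit (3.58.1, R 4.3.3) of log2(value + 1) over 24 libraries, with 6 group coefficients, a variance trend and 18 residual degrees of freedom. On data simulated for this comparison (16005 genes), 111 of 200 genes changed by log2 1 were recovered, with 6 false calls. Alternatives included edgeR 4.0.16 and DESeq2 1.42.0 on recovered reads. The authors also deposited log2 fold changes and p-values labelled as adjusted, used only where their table is named. Genes named are those of the lists, the 15 largest differences each way among called, non-overlapping genes whose log2 values average 1 or more, and some picked later. A gene of the basal list counts in that list but is not reported here by name. Members and lists were chosen with earlier results of these data known. Replicates are separately numbered animals, and no number is shared between groups.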

Additional observations from a re-analysis of the deposited data

Results flagged for a closer look

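Single animals far from the other 3 of their group were sought in 294 groups of values (named genes, list scores and library measures, SW females and SW males separately), of which chance flags about 1 in 20. Of 37 found, 30 were male 78 above the other SW males. Where the other 3 males had 0 reads, any reads in male 78 were flagged whatever their number, so that 1 in 20 does not hold there. This was so for Foxa1, Tmprss2, Tfap2c, Btn1a1, Krt15, Krt6a, Fgg and Capn8. Many of the flagged genes mark the same epithelium, so the 30 flags of male 78 are not separate findings. On the log2(value + 1) scale its outlying values were Krt18 (2.98), Krt19 (3.26), Foxa1 (2.80), Tmprss2 (2.16), Elf5 (0.76), Elf3 (0.28), Grhl2 (0.65), Tfap2c (0.64), Cldn4 (0.98), Cldn7 (0.59), Lcn2 (2.14) and Wfdc18 (1.06) among luminal genes, and Csn3 (3.62), Btn1a1 (0.26) and Muc15 (1.11) among milk genes. Those of basal genes were Krt5 (0.71), Krt15 (0.21) and Krt6a (0.0805), and those of ligands and receptors were Areg (1.03), Wnt7b (0.25) and Pgr (1.16). Outside the lists they were Tfap2b (1.78), Fgg (1.77), Dsp (1.20), Atp6v1b1 (0.92), Ptn (4.24) and Capn8 (0.43). Male 78 also had the outlying luminal (2.01), basal (2.29) and eosinophil and mast cell (1.98) scores.

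The other 7 were spread over 5 animals. Female 74 was low in Elf5 (2.29) and high in Esr1 (6.46), and had the fewest detected genes of the females (15972). Female 73 was high in Kera (2.40), and female 75 was low in the score of matrix proteins and enzymes (5.95). Male 85 was low in Aldh1a3 (3.47), and male 84 had the fewest detected genes of the males (15497).

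The sex difference (female minus male, log2 scale) at SW differed from that at p21 by the interaction test in 32 named genes. It was larger in favour of females for Krt7 (2.04), Elf3 (1.62), Grhl2 (1.32), Cldn3 (1.64), Cldn4 (2.01), Cldn7 (1.32), Cd24a (1.01), Lcn2 (1.54) and Krt15 (0.93) of the epithelial lists. The same held for Wnt7b (1.17), Adamts18 (1.19), Pgr (1.86), Gata3 (2.05), Erbb3 (1.21), Msx2 (1.20), Ckmt1 (0.93), Col9a1 (0.77), Col9a2 (1.27) and Kera (1.66), and for Ptn (2.17), Slc12a2 (1.29), Agps (1.07), Capn8 (1.89), Ido1 (1.76), Hc (1.69), Pak6 (1.00) and Proc (0.88), which were picked after their values were seen. It moved in favour of males for Chrna2 (-0.96), Ankef1 (-0.88), Syne3 (-1.11), Nrg4 (-0.87) and Slc5a6 (-1.05). Against DW it was larger in Hc (1.21), Pak6 (0.67) and Proc (0.63). These tests share the SW animals with the calls at SW.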

How the results depend on the processing

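Counts of genes higher in females stayed within 1.5 times the 521 reported under every alternative except the luminal score as a covariate, which left 2 calls, both higher in females, and 0 higher in males. That covariate lowered the luminal median to 0.112 and the basal median to -0.315, and its sign was reversed for Krt18 (-1.19), Krt8 (-1.74), Krt19 (-0.83), Epcam (-0.60), Cdh1 (-0.68), Krt7 (-0.07), Foxa1 (-1.91), Tmprss2 (-1.04), Tfap2c (-0.23), Ltf (-0.19), Csn3 (-2.50), Btn1a1 (-0.25), Muc15 (-0.47), Krt5 (-0.59), Krt14 (-0.58), Krt17 (-0.05), Cdh3 (-0.30), Sox10 (-0.84), Tspan8 (-0.18), Cnn1 (-1.65), Wnt5b (-0.05), Cd9 (-0.23), Col7a1 (-0.87), Tfap2b (-0.38), Fgg (-0.65), Dsp (-0.17) and Atp6v1b1 (-0.50), none of them called. The luminal score is the mean of the luminal list itself, and it did not overlap between SW females and males. The lowered luminal median and these reversed differences are therefore no test of single genes. Leaving out 1 animal at a time gave 469 to 538 calls, 458 to 508 higher in females and 10 to 45 higher in males. The 23 genes higher in males became 48 with DESeq2 and 50 with the run of animal numbers. Among single animals, they became 11 without female 73, 10 without female 75, 42 without female 81, 12 without male 84 and 45 without male 124. In 2 alternatives chosen after seeing the data they became 15 without male 84, female 74 and p21 male 53, and 86 with the adipocyte score as a covariate, where the adipocyte median was 0.026 and the basal median 0.956. The adipocyte score is likewise the mean of the list whose median it lowered towards 0. Count models and a pseudocount of 0.1 enlarge differences of low genes: the luminal median was 4.419 with edgeR, 4.438 with DESeq2, 4.451 with edgeR and DESeq2's size factors and 4.229 with the pseudocount, and the basal median was 0.983, 1.001, 1.001 and 1.032. The cause of the other shifts was not tested. No scaling moved the median of all genes by over 0.1. EdgeR on recovered reads kept 376 of the 521 and 18 of the 23 calls, and DESeq2 kept 451 and 22. In the authors' deposited table, a count of 1422 of the 15459 genes had a p-value labelled as adjusted under 0.05, 1066 of them higher in females, and 541 were among the 544 called here; DESeq2 here gave 1425 at an unadjusted and 539 at an adjusted p-value under 0.05, so that the deposited column may hold unadjusted values. No paired analysis was possible because animal numbers are not shared between groups. Genes at 0 reads in most males limit the size of a fold more than its direction.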
